A study of Mus musculus with 272 samples.

Results

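The genes described here encode matrix proteins of the niche around the muscle stem cell (MuSC): *Col5a1*, *Col5a2*, *Col5a3*, *Col6a1*, *Col6a2*, *Col4a1*, *Lama2*, *Lamb1*, *Lamc1* and *Fn1*. These 10 genes were taken by name from the 21938 protein-coding genes of GENCODE M21 on mm10. The rule uses no measured value, but the list was drawn up with earlier results of these data known. Each gene was examined at its promoter, 3 kb either side of any annotated start site, and in its locus, the gene with 50 kb on either side. The data are the deposited peak lists of 8 libraries, with 2 replicates each of ATAC-seq, H3K4me3, H3K27ac and H3K27me3, out of 272 samples in the series. All 8 came from GFP+ MuSCs sorted from hindlimb muscle of Pax7Cas9 mice, in which Pax7Cre switches on a Cas9-EGFP cassette at Rosa26, so that every sorted cell carried Cas9 and no library is an untreated wild type. The labels give the tissue as skeletal muscle, and the age, the sex and any AAV treatment of the mice behind these libraries are not given in the sources used here. Nothing states whether the replicates are separate animals, and the spread between them may therefore be technical.

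The MuSC lies between the myofiber and its basal lamina, a sheet in which laminin trimers bind receptors such as integrins and dystroglycan and a collagen IV network gives strength. The laminin of the adult myofiber is assembled from the chains encoded by *Lama2*, *Lamb1* and *Lamc1*, and loss of *Lama2* causes a congenital muscular dystrophy. Collagen VI forms microfibrils next to the basal lamina, collagen V is a minor fibrillar collagen that MuSCs themselves can deposit under Notch signaling, and fibronectin is a provisional matrix protein that rises in regenerating muscle. Among the chromatin features, open DNA (ATAC-seq) and H3K4me3 mark promoters ready for transcription, H3K27ac marks active promoters and enhancers, and H3K27me3 marks genes silenced by Polycomb.

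Most of the matrix promoters carried the 3 active features together. ATAC-seq and H3K4me3 peaks in both replicates were found at 10 of 10 promoters, beside 67.8% and 60.8% of all protein-coding genes. An H3K27ac peak in both replicates was found at 9 of 10, beside 46.6%, and *Lamb1* was the gene without one. A promoter H3K27me3 peak in both replicates was found at 0 of 10, beside 4.81%, and a count of 0 is near that share. The H3K27me3 lists held short peaks, with a median width of 176 bp in replicate 1 and 181 bp in replicate 2. Only 68.3% and 34.8% of their peaks overlapped the other replicate, so calls of this mark need caution. All 3 active features together were found at 9 of 10 promoters, beside 46.2% of all genes. No test was run on these counts, because the libraries hold a single cell population and genes are not replicates of it. A promoter without a listed peak may still carry a mark below the threshold of the caller.

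**Figure D1:**
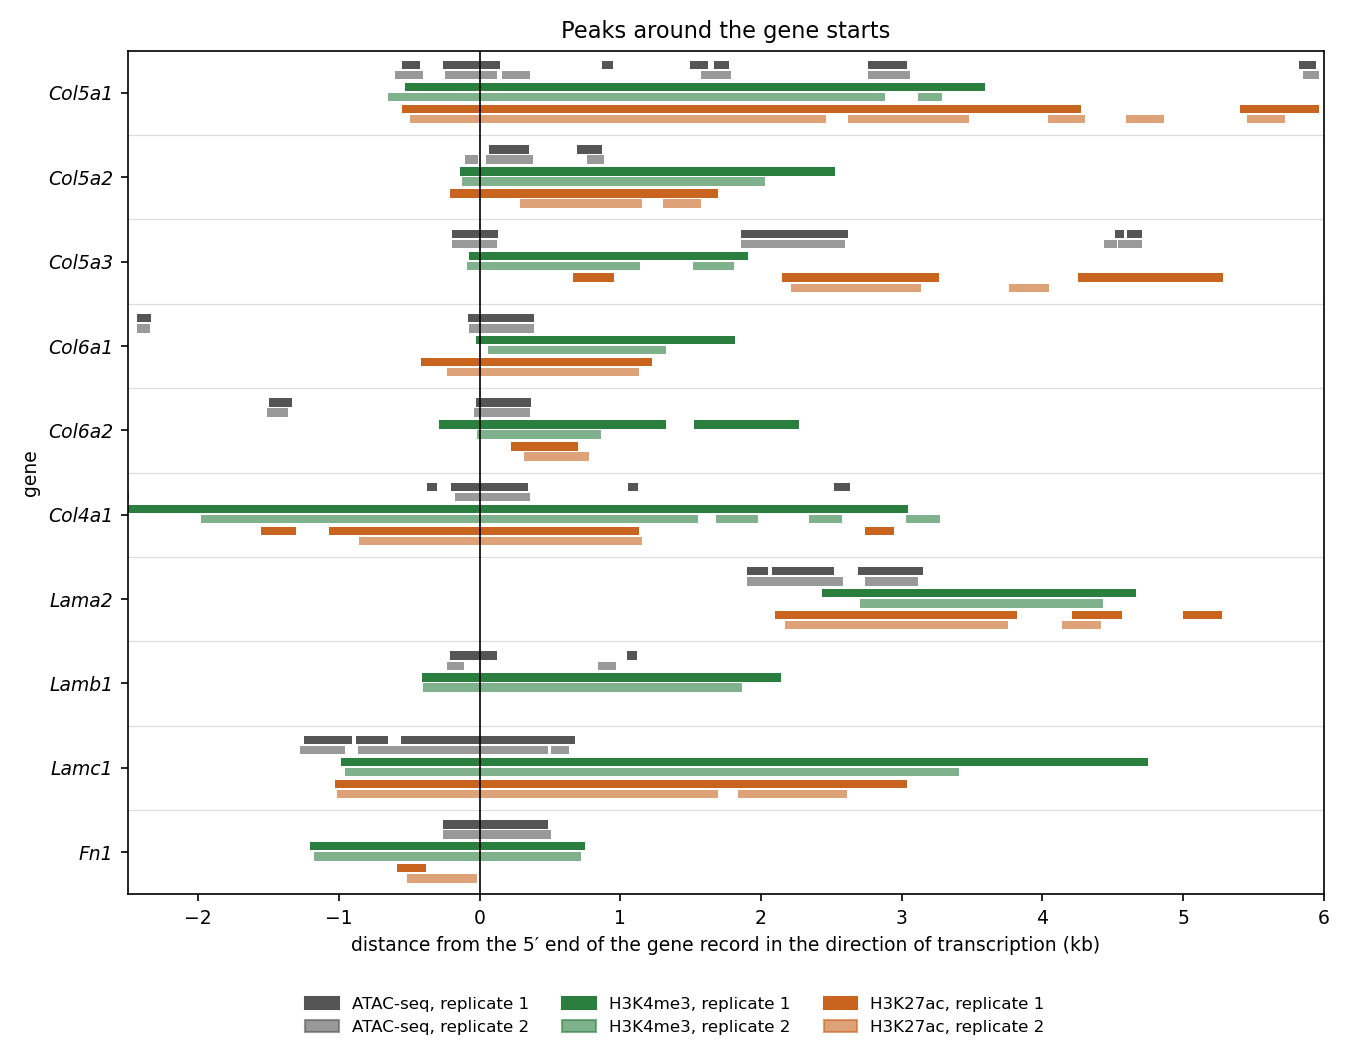
Extent of each listed ATAC-seq, H3K4me3 and H3K27ac peak around the 5′ end of the 10 gene records, in kb along the direction of transcription, with a bar per peak and a paler bar for replicate 2. The peaks of *Lama2* began about 2 kb inside the gene record, *Lamb1* had no H3K27ac bar, and the H3K27ac bars of *Fn1* were short and lay before the start.

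Where a mark was present, its height at these genes was mostly below that of other marked genes, while the histone marks were wider by the median. The height used is the fold enrichment at the summit of the strongest promoter peak, as the peak caller reported it. For H3K4me3 the matrix genes had a median fold of 18.03 in replicate 1 and 12.96 in replicate 2, against 23.9 and 17.63 over all genes with a promoter peak. For H3K27ac the medians were 6.94 and 8.46 over the 9 genes, against 13.88 and 11.95. The ATAC-seq medians were 10.2 and 9.36, against 13.28 and 12.18. Width ran the other way for the histone marks. The widest H3K4me3 peak of each matrix gene stood at a median percentile of 79.9 and 81.1 among marked genes, and the widest H3K27ac peak at 77.5 and 70.7. The widest ATAC-seq peak stood at 49.5 and 33.5. The genes differed much in width. The H3K27ac percentile ran from 0.346 at *Fn1* to 99.6 at *Col5a1* in replicate 1. In replicate 2 it ran from 13.9 at *Col6a2* to 98.5 at *Col5a1*. The H3K4me3 percentile ran from 49.0 at *Col6a2* to 99.4 at *Col4a1* in replicate 1, and from 19.9 at *Col6a2* to 99.0 at *Lamc1* in replicate 2. These are descriptions of 10 chosen genes and say nothing of genes outside the list.

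**Figure D2:**
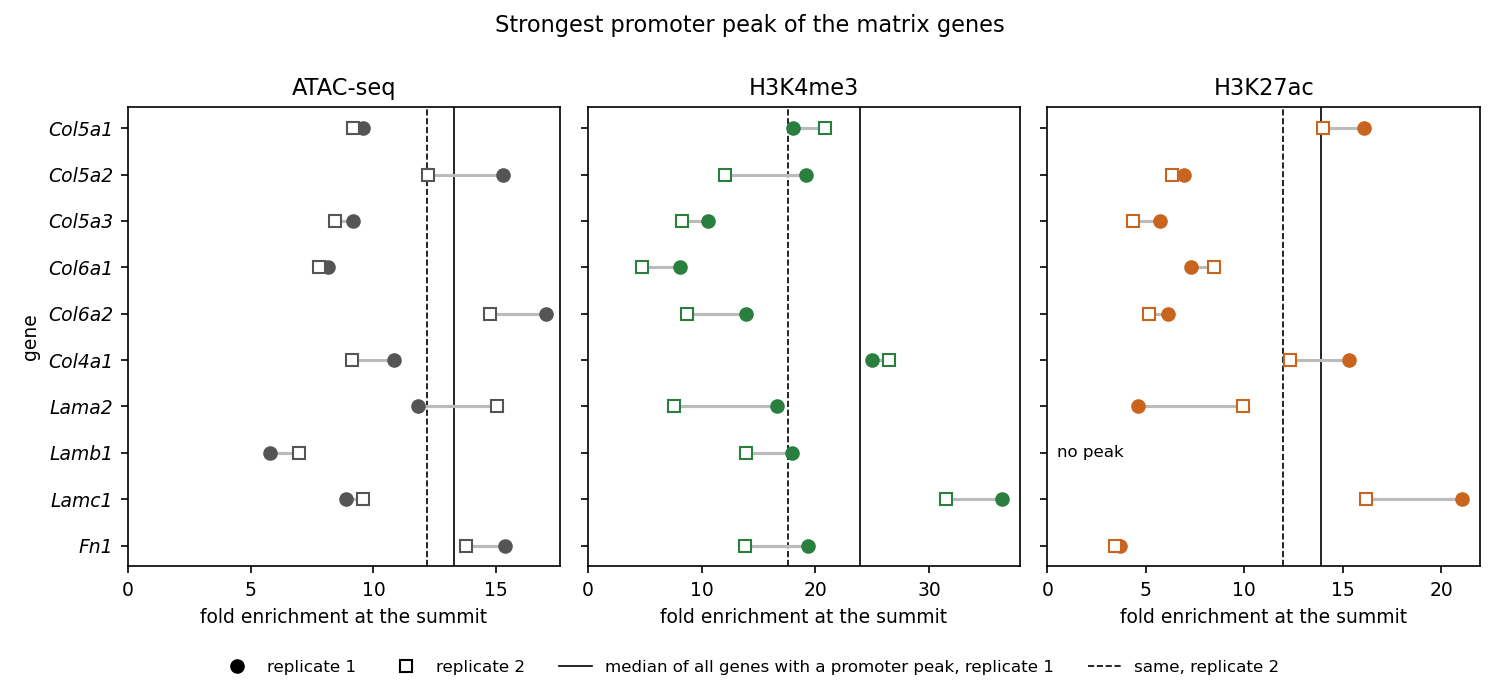
Fold enrichment at the summit of the strongest promoter peak for each gene, with a filled circle for replicate 1 and an open square for replicate 2, joined by a line. Vertical lines give the median of all protein-coding genes with a promoter peak. *Lamc1* and *Col4a1* lay at or above both H3K4me3 medians in both replicates, and *Fn1* had the lowest H3K27ac folds.

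The laminin genes were all open with H3K4me3 in both replicates, and differed in fold and in H3K27ac. *Lamc1*, the gamma chain shared by most laminins, had the highest H3K4me3 fold of the matrix genes in either list, 36.4 in replicate 1 and 31.47 in replicate 2. Its H3K27ac fold was also the highest, with 21.08 and 16.18. The difference from *Col5a1* (16.1 and 13.98) was smaller than the largest difference between replicates of a gene. The ATAC-seq fold of *Lamc1* was modest, 8.89 and 9.56, but the open stretch was 1234 and 1350 bp wide, at the 99.7 and 99.5 percentile of marked genes. Its H3K4me3 peak covered 5737 and 4364 bp and its H3K27ac peak 4064 and 2709 bp.

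*Lamb1*, the beta chain, was open and carried H3K4me3 but had no listed H3K27ac. Its H3K4me3 fold was 17.99 in replicate 1 and 13.87 in replicate 2, near the median of the matrix genes, over 2547 and 2272 bp. The strongest ATAC-seq peak had a fold of 5.79 and 6.97, the lowest of the matrix genes in both lists. These peaks measured 189 and 127 bp and did not overlap each other, with summits 63 bp after the gene start in replicate 1 and 178 bp before it in replicate 2. Open, H3K4me3-marked promoters without H3K27ac in either replicate made up 10.5% of all protein-coding genes. The start of *Lamb1* is printed because it is the one without H3K27ac. The sequence runs from 250 bases before to 50 bases after the annotated start (chr12:31264984-31265283, plus strand, GRCm38.p6), with capitals for matches to any of 5 motifs, which are the GC box (GGGCGG), the CCAAT box (CCAAT), the E-box (CAGCTG), the AP-1 motif (TGANTCA) and the RBPJ motif (GTGGGAA), each on both strands.

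Lamb1 promoter: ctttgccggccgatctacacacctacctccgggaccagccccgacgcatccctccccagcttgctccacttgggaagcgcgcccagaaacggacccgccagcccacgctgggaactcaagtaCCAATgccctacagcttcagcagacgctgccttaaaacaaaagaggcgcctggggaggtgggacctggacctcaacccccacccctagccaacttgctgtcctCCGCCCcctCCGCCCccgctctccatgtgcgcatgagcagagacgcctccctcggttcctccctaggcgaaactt

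Here the G and C share was 64.0%, with a CCAAT box starting 128 bases before the start and GC boxes starting 25 and 16 bases before it. The only H3K27ac in the *Lamb1* locus lay at the promoter of its neighbor *Dld*, a mitochondrial dehydrogenase subunit, 86.0 kb from the *Lamb1* start, with a fold of 19.74 and 17.63.

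*Lama2*, which encodes the alpha chain of muscle laminin, was marked at an internal cluster of start sites. Its gene record begins at chr10:27619758, and no peak of any active feature lay within 1 kb of that base in either replicate. The strongest ATAC-seq peak instead had its summit 2847 and 2881 bp inside the gene, with a fold of 11.82 and 15.04. In replicate 2 that summit was 11 bp from another annotated start, 2892 bp inside the record, which is 1 of 7 annotated for the gene. *Lama2* was also the gene on which the replicates differed most. Its H3K4me3 fold was 16.65 in replicate 1 and 7.6 in replicate 2, a 2.19-fold difference, whereas its H3K27ac fold was 4.62 and 9.92, a 2.15-fold difference in the opposite direction. The sequence around the open start is printed because a 300-base window at the first base of the record does not reach it, although the promoter of 3 kb does (chr10:27616817-27617116, minus strand).

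Lama2 internal start site: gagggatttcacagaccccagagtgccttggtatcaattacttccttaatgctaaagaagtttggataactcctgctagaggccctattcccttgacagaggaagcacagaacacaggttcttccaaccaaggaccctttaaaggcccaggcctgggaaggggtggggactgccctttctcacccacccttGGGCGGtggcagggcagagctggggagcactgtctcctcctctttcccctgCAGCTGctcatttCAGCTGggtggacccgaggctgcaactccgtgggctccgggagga

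An E-box of the form CAGCTG, the core that myogenic factors such as MYOD1 bind, began 8 bases before this start and another 5 bases after it. A GC box began 59 bases before it. The E-box was present in 15.63% of the 300-base windows at the 5′ ends of all protein-coding genes.

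*Col4a1*, a collagen IV chain of the basal lamina, had the highest H3K4me3 folds after *Lamc1*. The difference between them was smaller than the largest difference between replicates of a gene, so no order is read. The *Col4a1* folds were 25 and 26.45, and the peak spread over 6048 and 3537 bp, at the 99.4 and 97.7 percentile of width. H3K27ac reached 15.33 and 12.3. *Col4a1* and *Col4a2* start head to head, so these peaks cover both starts and cannot be assigned to either gene. Promoter peaks at 3 other matrix genes likewise cannot be assigned to one gene, since a gene not annotated as protein-coding starts within 3 kb of them, *2810430I11Rik* at *Col5a1*, *Gm36962* at *Lama2* and the antisense gene *Apol7d* at *Fn1*. The shared start is shown from the *Col4a1* side (chr8:11312777-11313076, minus strand).

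Col4a1 promoter: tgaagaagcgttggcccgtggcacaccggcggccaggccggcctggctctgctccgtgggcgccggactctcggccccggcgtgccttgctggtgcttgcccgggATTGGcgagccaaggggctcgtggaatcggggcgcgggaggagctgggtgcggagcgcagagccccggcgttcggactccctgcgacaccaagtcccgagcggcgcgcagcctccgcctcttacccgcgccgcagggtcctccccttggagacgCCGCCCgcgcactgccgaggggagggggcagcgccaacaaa

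A reversed CCAAT box began 145 bases before the *Col4a1* start and a GC box 9 bases after it, in a window of 74.0% G or C.

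Of the collagen V genes, *Col5a1* stood above *Col5a2* and *Col5a3* for H3K27ac. *Col5a1*, the chain present in nearly all collagen V, had an H3K27ac fold of 16.1 in replicate 1 and 13.98 in replicate 2. Its H3K27ac peak was 4826 and 2951 bp wide, at the 99.6 and 98.5 percentile of marked genes, and extended from before the start into the first intron. H3K4me3 there was 18.08 and 20.83. An 84-bp H3K27me3 peak with a fold of 3.6 and a −log10 q of 0.93 was listed at the *Col5a1* promoter in replicate 1, and no such peak was listed in replicate 2.

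*Col5a2*, the partner chain of *Col5a1*, had an H3K4me3 fold of 19.19 and 12.09 and an H3K27ac fold of 6.94 and 6.35. Its ATAC-seq fold, 15.29 and 12.21, was above the median of the matrix genes in both lists. *Col5a3*, a chain of more limited tissue range, had lower H3K4me3 and H3K27ac folds than *Col5a2*. Within a replicate these differences were smaller than the largest difference between replicates of one gene, so no order is read from these marks. The H3K4me3 fold of *Col5a3* was 10.59 and 8.32. The H3K27ac peak found in both replicates, with a fold of 5.73 and 4.34, had its summit 2347 and 2330 bp inside the gene, and within 1 kb of the start H3K27ac was listed in replicate 1 alone, at 4.75. In the *Col5a3* locus, H3K27me3 peaks were listed at the start sites of *Olfm2*, the neighboring olfactomedin gene, and none at *Col5a3* itself. These peaks were weak, with a −log10 q from 0.45 to 2.72, and 2 of their 8 regions were found in both replicates.

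The collagen VI genes *Col6a1* and *Col6a2*, neighbors on chromosome 10 whose products join in one protomer, had a lower H3K4me3 fold than most of the others. *Col6a1* had 8.14 in replicate 1 and 4.73 in replicate 2, the lowest of the matrix genes in both lists. *Col6a2* had 13.9 and 8.71. H3K27ac was 7.28 and 8.46 at *Col6a1* and 6.13 and 5.15 at *Col6a2*. Within a replicate the genes differed in both histone marks by less than the largest difference between replicates of one gene, so no order is read from these marks. Chromatin was more open at *Col6a2*, with an ATAC-seq fold of 17.04 and 14.74 against 8.14 and 7.8. For ATAC-seq the difference exceeded the largest one between replicates.

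*Fn1*, encoding fibronectin, was open with H3K4me3 but close to the limit of detection for H3K27ac. Its ATAC-seq fold was 15.34 and 13.76 and its H3K4me3 fold 19.38 and 13.83. The H3K27ac peak lay before the *Fn1* start, inside *Apol7d*. Its fold was 3.66 and 3.44, at the 1.03 and 0.344 percentile of marked genes, with a −log10 q of 2.57 and 2.94. With only peaks of −log10 q of at least 5 counted, the H3K27ac call was lost at *Fn1* and *Col5a3*, which left 7 of 10 genes. The *Fn1* promoter is shown for comparison with that of *Lamb1* (chr1:71653151-71653450, minus strand).

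Fn1 promoter: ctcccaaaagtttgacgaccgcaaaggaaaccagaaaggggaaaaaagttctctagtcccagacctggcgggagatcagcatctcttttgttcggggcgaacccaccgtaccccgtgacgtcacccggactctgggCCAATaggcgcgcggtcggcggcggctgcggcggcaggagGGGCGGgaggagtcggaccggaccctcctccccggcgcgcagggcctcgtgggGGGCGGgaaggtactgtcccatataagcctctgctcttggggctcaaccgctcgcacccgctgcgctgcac

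GC boxes began 74 and 21 bases before the *Fn1* start and a CCAAT box 114 bases before it, the same 2 kinds of motif as at *Lamb1*. In the 5′ windows of the 10 genes, a GC box was found in 7, against 43.01% of all protein-coding genes, and a CCAAT box in 4, against 39.01%. The AP-1 motif (TGANTCA) was found in 1, *Col6a1*, against 6.91%, the E-box (CAGCTG) in 1, *Col5a3*, against 15.63%, and the RBPJ motif (GTGGGAA) in 0, against 6.07%. All motifs were searched on both strands, and a match is a description of letters, not a bound site.

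Beyond the promoters, H3K27ac was gathered at a few of the loci. A distal peak is one farther than 3 kb from the start site of any gene and overlapping a peak of the other replicate. A distal ATAC-seq peak in both replicates was found for 9 of 10 genes, beside 68.2% of all protein-coding genes, and *Fn1* was the exception. A distal H3K27ac peak in both was found for 4 of 10, *Lamc1*, *Col4a1*, *Col5a1* and *Col6a2*, beside 16.9%. Distal H3K4me3 and H3K27me3 were found in both replicates for 0 of 10, beside 14.9% and 2.81%. For H3K27me3 a count of 0 is near that share. A longer locus has more room for a peak, and none of these shares was matched for locus length. In peaks per 100 kb, the matrix loci stood at a median percentile of 63.4 and 67.9 for H3K27ac. For ATAC-seq the median percentile was 72.7 and 76.6.

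**Figure D3:**
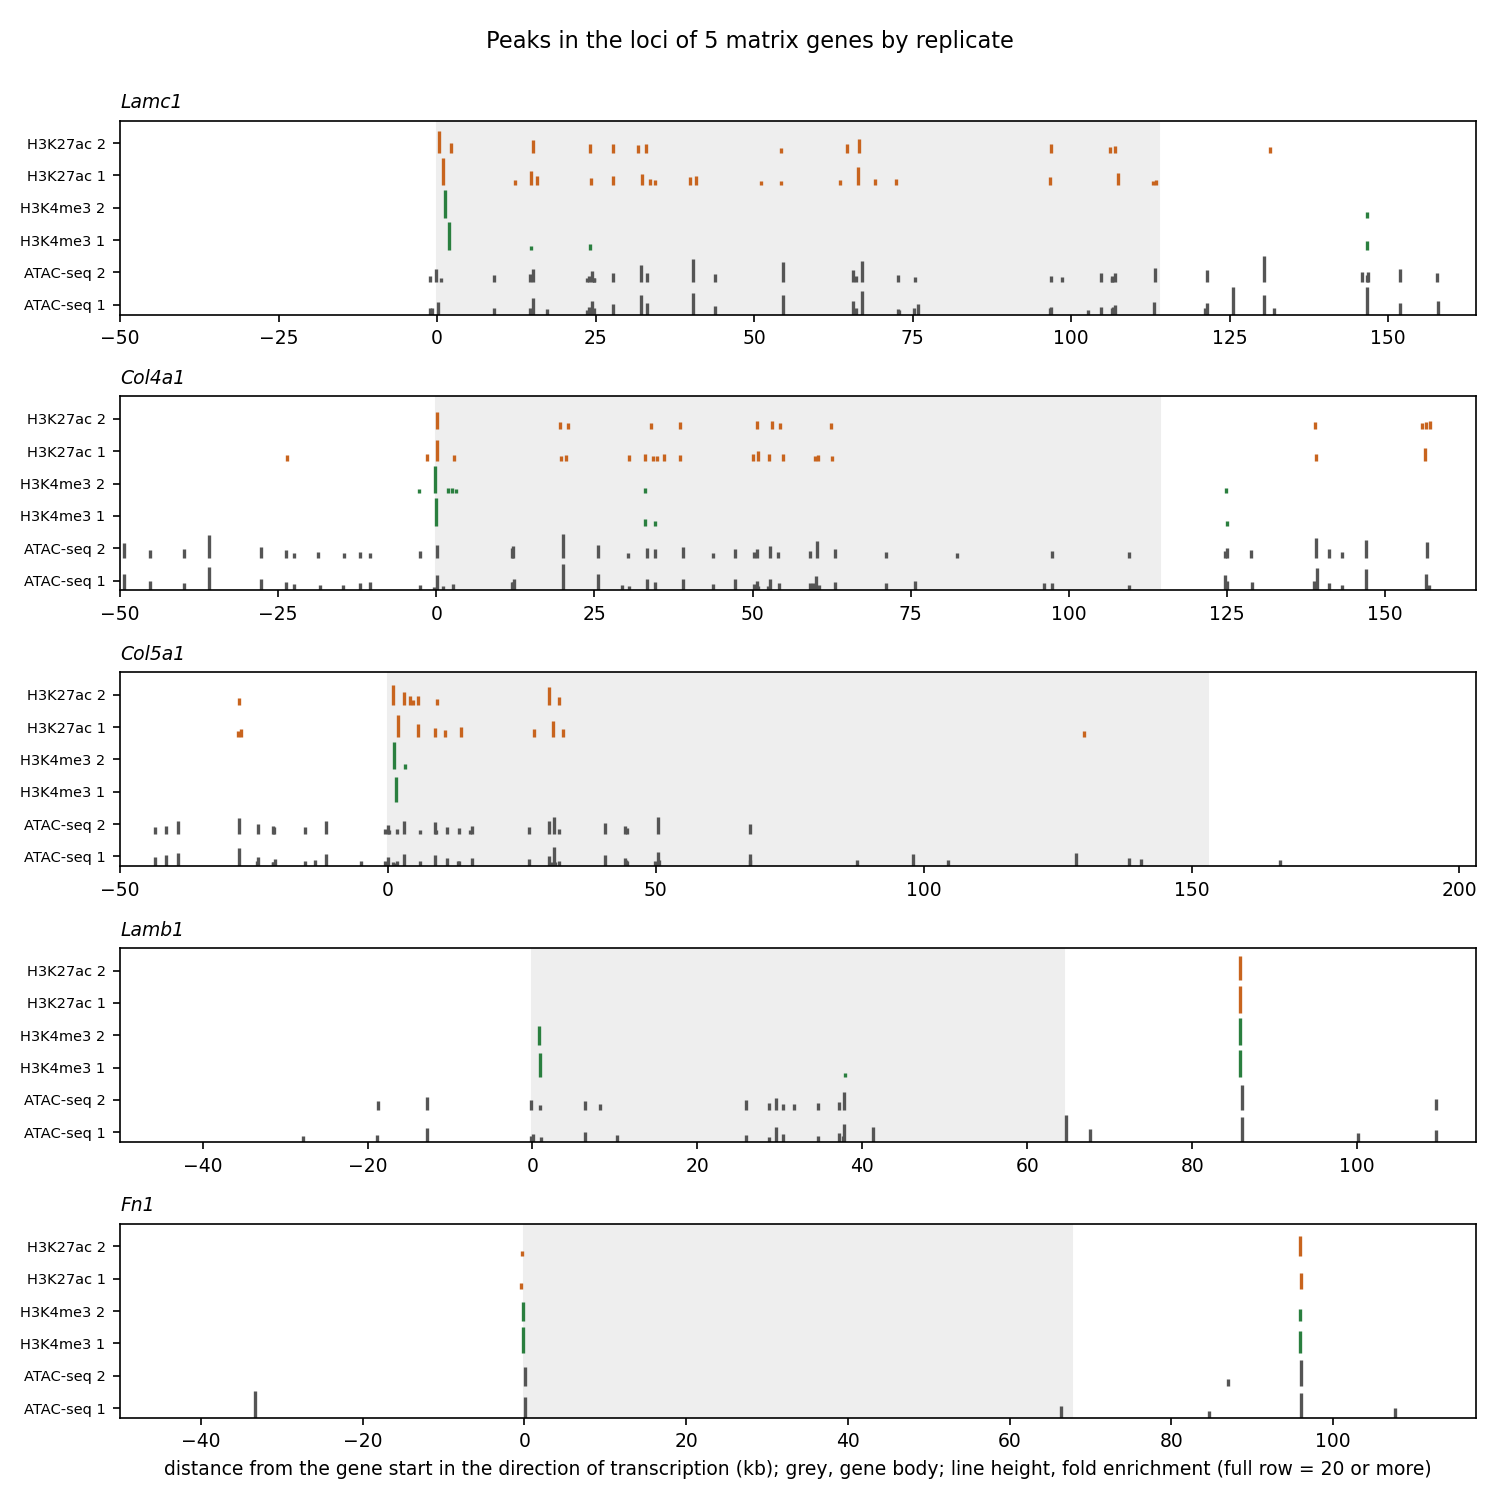
Peaks of the 3 active features in each replicate across 5 loci, by distance from the gene start in kb, with the gene body in gray and line height for fold enrichment (a full row is 20 or more). H3K27ac lines recur along *Lamc1*, *Col4a1* and the first part of *Col5a1*, whereas *Lamb1* and *Fn1* show H3K27ac at a neighbor's promoter and, for *Fn1*, a weak line at its own.

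Counting overlapping peaks of the replicates as one region, the loci held 77 H3K27ac regions, of which 37 were found in both replicates. Of these 37, 13 lay at a start site of the matrix gene itself, 8 at the start of another gene and 16 were distal. The distal regions were mostly inside the genes, 12 in introns, 2 upstream and 2 downstream, and 13 of the 16 overlapped ATAC-seq peaks in both replicates. *Col4a1* held 7 of the 16, *Col5a1* and *Lamc1* 4 each and *Col6a2* 1. Of the 40 H3K27ac regions found in a single replicate, 34 came from replicate 1 and 6 from replicate 2, in the order of the list lengths (24209 and 18584 peaks).

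The *Lamc1* locus had the most H3K27ac. It held 21 peaks in replicate 1 and 14 in replicate 2, which covered 10.7% and 6.45% of its bases, at the 98.4 and 96.0 percentile of all protein-coding genes. The strongest distal region was an intronic one 66.4 kb from the start (chr1:153264514-153268281), with an H3K27ac fold of 13.32 and 9.93. Others lay 14.8 kb (10.35 and 9.56) and 31985 bp (8.01 and 6.75) into the gene. The 300 bases around the ATAC-seq summit of the strongest region, which had an ATAC-seq fold of 16.93 and 15.62, are printed on the strand of the gene (chr1:153265683-153265982).

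Lamc1 strongest distal element: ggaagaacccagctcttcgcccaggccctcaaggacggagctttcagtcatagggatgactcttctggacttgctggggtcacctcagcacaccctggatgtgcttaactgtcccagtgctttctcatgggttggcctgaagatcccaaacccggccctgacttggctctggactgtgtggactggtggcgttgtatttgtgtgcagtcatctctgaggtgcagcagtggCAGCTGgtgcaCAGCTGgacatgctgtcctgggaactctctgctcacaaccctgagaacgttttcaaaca

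E-boxes began 81 and 92 bases after the ATAC-seq summit, the same CAGCTG letters as at the open *Lama2* start. The E-box is common in such elements, with 46.01% of the 2219 distal elements of the genome built in the same way holding one.

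*Col5a1* had a distal region of nearly the height of its promoter. The intronic region 30.4 kb from the start (chr2:27915812-27919726) had an H3K27ac fold of 11.88 in replicate 1 and 12.87 in replicate 2, against 16.1 and 13.98 at the promoter. Its ATAC-seq peak reached 13.71 and 12.34, higher than the 6.63 and 6.67 within 1 kb of the *Col5a1* start. Within 3 kb of any *Col5a1* start site the strongest ATAC-seq fold was 9.56 and 9.16. The replicate 1 value came from a 79-bp peak 128.0 kb inside the gene, which was not listed in replicate 2. Another intronic region 8.26 kb from the start (chr2:27894486-27895900) was weaker, with an H3K27ac fold of 6.51 and 4.05. Further regions lay 5.6 kb inside the gene (9.2 and 6.25) and 27.9 kb upstream (4.02 and 4.41). The 300 bases at the ATAC-seq summit are shown for the strongest region (chr2:27917216-27917515) and for the weaker one (chr2:27894958-27895257), since the latter was the only distal matrix element with the RBPJ motif, the sequence bound by the DNA-binding partner of Notch.

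Col5a1 strongest distal element: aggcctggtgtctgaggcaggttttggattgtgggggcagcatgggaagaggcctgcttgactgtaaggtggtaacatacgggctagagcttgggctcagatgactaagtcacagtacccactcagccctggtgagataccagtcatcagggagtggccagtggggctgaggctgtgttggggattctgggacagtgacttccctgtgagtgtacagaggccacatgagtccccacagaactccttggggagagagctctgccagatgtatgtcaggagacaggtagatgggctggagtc
Col5a1 element with RBPJ motifs: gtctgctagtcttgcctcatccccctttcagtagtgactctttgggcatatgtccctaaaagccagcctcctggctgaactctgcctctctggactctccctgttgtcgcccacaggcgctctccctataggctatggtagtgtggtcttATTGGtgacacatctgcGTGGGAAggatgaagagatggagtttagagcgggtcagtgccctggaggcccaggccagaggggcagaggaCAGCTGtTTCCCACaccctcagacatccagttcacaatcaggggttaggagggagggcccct

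In the weaker element an RBPJ motif began 17 bases after the summit and a reversed one 95 bases after it, next to an E-box at 88 bases. None of the 5 motifs was found in the stronger element. Over the 2219 distal elements of the genome built in the same way, 8.88% held an RBPJ motif.

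The *Col4a1* locus held 21 H3K27ac peaks in replicate 1 and 13 in replicate 2, a density of 9.79 and 6.06 per 100 kb, at the 97.6 and 93.2 percentile. A cluster of intronic regions stretched from 50.8 kb to 62.5 kb from the start, where the region at 50.8 kb had an H3K27ac fold of 7.52 and 5.29 and the one at 53.1 kb had 4.98 and 5.88, so that each was the higher in one replicate.

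*Col6a2* had a single distal H3K27ac region in both replicates, 19.6 kb upstream of its start and between it and *Col6a1*, with a fold of 6.13 and 4.22. *Col5a3* and *Col6a1* had similar regions that did not count as distal because a non-coding gene starts nearby. The one in *Col5a3*, 10.3 kb from the start, had a fold of 8.05 and 5.62 and lay near *Gm26274*. The one 5.82 kb upstream of *Col6a1* had 6.51 and 6.49 and lay near *Gm48276*. With the start sites of protein-coding genes alone, 6 of 10 matrix genes had a distal H3K27ac peak in both replicates, beside 19.8% of all genes. This share was not matched for locus length either.

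Across the 10 distal matrix elements with an ATAC-seq summit inside shared H3K27ac, 5 held an AP-1 motif, against 25.42% of the 2219 elements, and 3 held an E-box, against 46.01%. The RBPJ motif and the GC box were each found in 1, against 8.88% and 16.45%, and the CCAAT box in 2, against 27.85%. The elements came from 4 genes, so they are few and share their loci.

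Open distal sites were spread more evenly than H3K27ac. Of 137 distal ATAC-seq peaks of replicate 1 in the matrix loci that were shared with replicate 2, 21 overlapped H3K27ac in both replicates, or 15.3%, against 8.23% of 48588 such peaks in the genome. Taken as regions, 10 of 21 at *Lamc1*, 4 of 23 at *Col5a1* and 4 of 30 at *Col4a1* carried H3K27ac in both replicates, and 0 at each of the other 6 genes with distal ATAC-seq. The distal H3K27ac region of *Col6a2* did overlap ATAC-seq peaks in both replicates. However, no ATAC-seq region found there in both replicates met H3K27ac in both. At *Col5a3* and *Col6a1*, open regions with H3K27ac in both replicates lay near the start of a non-coding gene and were not counted. Some of the most open sites had no H3K27ac listed. A region 15.9 kb upstream of *Col5a3* had an ATAC-seq fold of 24.91 and 22.49, and one 556.0 kb inside *Lama2* had 19.66 and 22.16, both without an H3K27ac peak in either replicate. In *Lamb1* the most open distal site lay in an exon 37.8 kb from the start, with 12.78 and 12.84, also without H3K27ac.

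**Figure D4:**
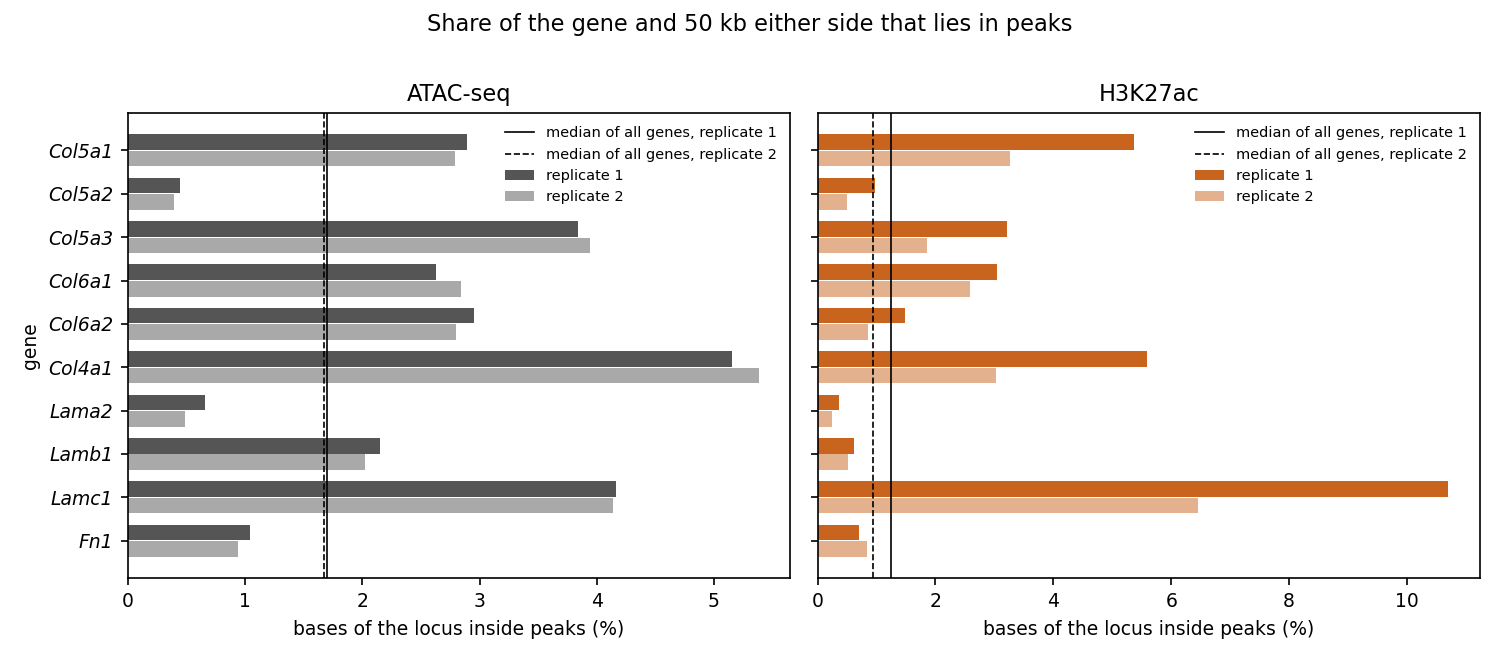
Share of the bases of each locus that lay inside ATAC-seq or H3K27ac peaks, in percent, with a bar per replicate and lines for the median of all protein-coding genes. H3K27ac covered 10.7% and 6.45% of the *Lamc1* locus, and *Lama2*, *Lamb1*, *Fn1* and *Col5a2* lay below the median lines in both replicates for H3K27ac.

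H3K27ac was sparse in 4 of the loci. It covered 0.365% and 0.252% of the *Lama2* locus, the longest with 739723 bp, 0.623% and 0.524% of the *Lamb1* locus, 0.704% and 0.831% of the *Fn1* locus and 0.977% and 0.497% of the *Col5a2* locus, against a median of 1.25% and 0.938% over all genes. *Fn1* had 6 ATAC-seq peaks in replicate 1 and 3 in replicate 2. *Lama2* had 33 and 13, and 18 of its 28 ATAC-seq regions were listed in replicate 1 alone. The *Lamb1* locus was not sparse in open sites, with 22 and 16 ATAC-seq peaks, or 13.4 and 9.73 per 100 kb, at the 70.8 and 69.4 percentile.

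Related gene lists give the setting of these promoters. Among the other fibrillar collagens, all 3 active features in both replicates were found at 1 of 6, *Col3a1*, a collagen III chain, with an H3K27ac fold of 8.15 and 4.69. *Col1a1*, the main chain of collagen I, had an H3K4me3 fold of 7.72 and 5.55 and no H3K27ac. Among the other collagen IV and VI chains the count was 1 of 9, *Col4a2*, through the promoter shared with *Col4a1*. *Col6a3*, which completes the collagen VI protomer, was open with a fold of 12.14 and 10.4 but had no H3K4me3 peak. *Lamb2*, the alternative beta chain that is concentrated at the neuromuscular junction, had an H3K27ac fold of 24.91 and 20.96, where *Lamb1* had none, and was chosen after its values were seen. The count was 4 of 6 for basement membrane linkers such as *Hspg2* and *Agrn*, 9 of 11 for matrix receptors, including *Itgb1*, the beta subunit of the laminin and fibronectin integrins (49.05 and 31.63), and *Dag1*, which encodes dystroglycan (13.03 and 12.14), and 7 of 10 for collagen processing enzymes. Over all protein-coding genes, the share with all 3 active features in both replicates was 46.2%. The related lists are small, and no difference between them was tested.

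**Figure D5:**
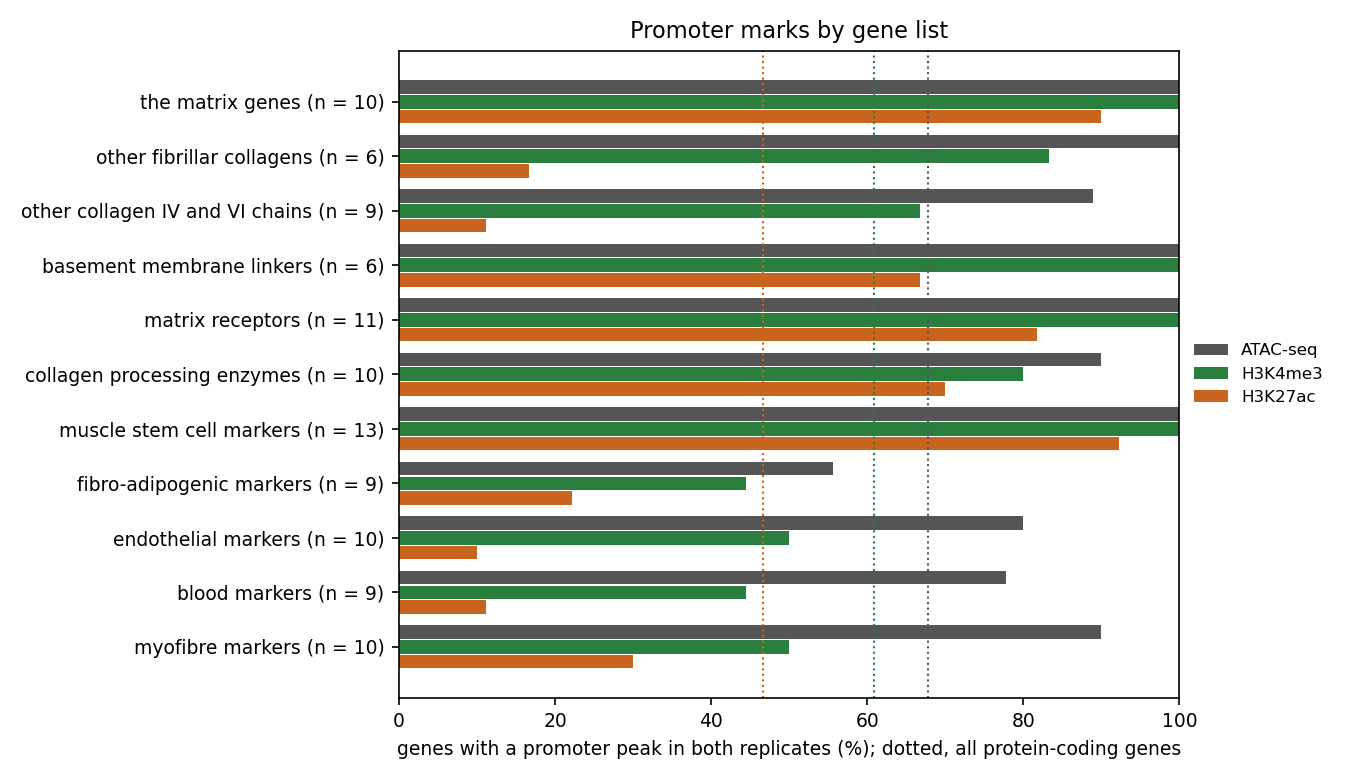
Share of the genes of each list with an ATAC-seq, H3K4me3 or H3K27ac promoter peak in both replicates, in percent, with the number of genes in the list and dotted lines for all protein-coding genes. The matrix genes had H3K27ac at 90.0%, the muscle stem cell markers at 92.3%, and the other fibrillar collagens at 16.7%.

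Markers of the sorted cell were in place, and those of the 4 other cell types given here were mostly without H3K27ac. Of 13 MuSC markers, 12 had all 3 active features in both replicates, with an H3K27ac fold of 15.02 and 14.73 at *Pax7*, and *Calcr* lacked H3K27ac. The same count was 2 of 9 for markers of fibro-adipogenic cells, a main source of muscle matrix. It was 1 of 10 for endothelial, 1 of 9 for blood and 2 of 10 for myofiber markers. Over all protein-coding genes the share was 46.2%. Most promoters of the 4 other cell types were open, as were most promoters of all protein-coding genes (67.8%). An ATAC-seq peak in both replicates was found at 5 of 9 fibro-adipogenic, 8 of 10 endothelial, 7 of 9 blood and 9 of 10 myofiber markers. For H3K4me3 the counts were 4 of 9, 5 of 10, 4 of 9 and 5 of 10, beside 60.8% of all protein-coding genes. *Pdgfra*, the defining fibro-adipogenic marker, had H3K27me3 in both replicates, and was also open with H3K4me3 in both. The endothelial genes *Pecam1* and *Cdh5* were open in both replicates and had no promoter H3K27ac. H3K27ac was listed at *Dpt* (8.81 and 6.21) and *Cd55* (4.98 and 5.15) of the fibro-adipogenic list, at the endothelial *Tek* (10.97 and 10.2) and at the macrophage gene *Cd68* of the blood list (16.86 and 8.09). Of the myofiber genes it was listed at *Mylpf* (8.04 and 9.25), *Actn3* (8.81 and 9.93) and *Myh1* (11.33 and 7.24), the last without H3K4me3. These folds overlap the range of the matrix genes. The part of other cells in the peaks of the matrix genes was not tested.

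The strongest promoter peaks of the replicates overlapped at 8 of 10 genes for ATAC-seq, 10 of 10 for H3K4me3 and 9 of 9 for H3K27ac. Fold enrichment differed between replicates by up to 1.27-fold for ATAC-seq, 2.19-fold for H3K4me3 and 2.15-fold for H3K27ac, and for H3K4me3 it was higher in replicate 1 at 8 of 10 genes. Differences between genes smaller than this spread, such as those among *Col5a2*, *Fn1* and *Lamb1* for H3K4me3, cannot be told from replicate variation.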

How the data were processed

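Peak lists of 8 libraries from GFP+ MuSCs were used, 2 replicates each of ATAC-seq, H3K4me3, H3K27ac and H3K27me3 ChIP-seq. Per the study's methods and the submitters' processing notes, the authors trimmed reads (Trim Galore 0.6.10), aligned them to mm10 (BWA 0.7.17-r1188), removed duplicates, poorly mapped reads and blacklisted regions, shifted ATAC-seq reads for the Tn5 offset (deepTools 3.5.5) and called peaks per library (MACS2 2.2.6). The deposited columns give fold enrichment at each summit, a ratio over background computed by the authors, with the p-value and q-value of the authors' caller as −log10. The score column is the authors' scaled significance and was not used. The lists hold no read numbers, so depth is unknown and no interval is given.

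Peaks were joined to GENCODE M21 genes on 21 chromosomes by an overlap of at least 1 bp (Python 3.11.15, pandas 2.3.3), with the overlap code tested on simulated data. A call needs a peak in both replicates. Sequences were read by coordinate from the RefSeq copy of GRCm38.p6 (pysam 0.24.0). Distal elements were the 300 bases around the strongest shared ATAC-seq summit in a distal H3K27ac peak of replicate 1 shared with replicate 2. Genes named are all 10 matrix genes, and genes of the related lists with the values that set them apart. The matrix genes, the gene lists and the motifs were chosen with earlier results of these data known. The alternatives were another promoter width, another flank, a stricter q-value, the 5′ end of the gene record alone, a minimum share of the peak and each replicate alone. Other samples of the series were not analysed here, and some items, among them 2 gene lists, are not reported here.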

Additional observations from a re-analysis of the deposited data

How the results depend on the processing

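The promoter counts for ATAC-seq, H3K4me3 and H3K27ac stayed within 1.5 times their value under every alternative run, with H3K27ac at 7 of 10 genes for peaks of −log10 q of at least 5 and 8 of 10 for promoters of 1 kb. Of 80 alternative values, 12 moved further, and the cause was not tested. Counted in a single replicate, the genes with a promoter H3K27me3 peak ranged from 0 to 1, those with a distal H3K4me3 peak from 0 to 4 and those with a distal H3K27ac peak from 6 to 7, the higher value in each case from replicate 1 alone. With distal counted from 1 kb, a distal H3K27me3 peak was found for 1 gene. With distal counted from protein-coding starts alone, an alternative chosen after seeing the data, a distal H3K4me3 peak was found for 1 gene. Peak numbers were summed over the 10 loci and averaged over the replicates. For ATAC-seq this total fell from 231.5 to 134.5 in the gene bodies alone, and for H3K27ac from 64 to 39.5 at the stricter q-value. For H3K27me3 it fell from 5.5 to 0.5 and 0 under the same 2 choices. In promoters from 500 bases before to 100 after the start, the RBPJ motif was found in 1 gene, the E-box in 2 and the AP-1 motif in 2. No paired analysis was possible because the lists give calls without a test, and a replicate number shared by different assays is not stated to mark the same animals.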
